A study of Homo sapiens with 9 samples.

Results

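The genes described here encode the proteins of the cytosolic ribosome. They were taken from the count table by symbol (RPL or RPS followed by a number and at most 1 of the letters A, X and L, with RPLP0, RPLP1, RPLP2, RPSA, RPL7L1, RPL13A, RPL36AL and RPS27A), which gave 84 of 23710 entries, 51 of the large and 33 of the small subunit. RNA was sequenced from the established human breast cancer line MDA-MB-231, which is triple-negative, in 3 groups of 3 libraries. Cells of the first group carried shUGDH-1 and cells of the second shUGDH-2, which are 2 independent short hairpin RNAs against UGDH, and cells of the control group carried the non-targeting hairpin shNT. All 3 groups had been transduced with lentivirus from pGIPZ and were grown in the same medium with serum, so the controls also carry a vector and a hairpin. The product of UGDH makes UDP-glucuronate from UDP-glucose. The labels call the cultures biological replicates but do not say whether each was transduced separately, so each p-value reflects only the spread among these libraries, which may be technical.

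The ribosome is built from ribosomal RNA and about one protein of each kind per particle, so cells make these proteins in near-equal numbers. Small-subunit proteins surround the channel in which messenger RNA is decoded, and large-subunit proteins surround the site of peptide bond formation, the exit tunnel and the stalk that recruits translation factors. The messenger RNAs begin with a run of pyrimidines at the cap, the TOP motif, through which mTORC1 and LARP1 control their translation and stability. In growing tumour lines these transcripts are among the most abundant of all.

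The libraries held 9249738 to 13328002 counts, the lowest in shUGDH-1 replicate 3. UGDH, the targeted gene, had 7.62, 7.30 and 8.03 CPM (library-scaled counts) with shUGDH-1, 8.09, 6.62 and 6.79 CPM with shUGDH-2, and 53.0, 55.6 and 50.3 CPM with shNT. Both knockdown groups lay far below every control library, with log2 fold changes of -2.80 ± 0.085 (SE) in shUGDH-1 cells and -2.89 ± 0.084 in shUGDH-2 cells. Among markers of the line, VIM, CD44, MSN and AXL lay between 982 and 2526 CPM in every library, while ESR1 had at most 0.11 CPM and PGR was at 0. ERBB2, expected to be low in this line, had 114 to 129 CPM. The leukocyte gene CD3E and the fibroblast genes DCN and LUM were at 0 in all 9 libraries, PTPRC reached at most 0.154 CPM, CD14 2.54 CPM and PDGFRB 22.95 CPM.

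Of the 84 entries, 79 passed the filter on low counts, 48 of the large and 31 of the small subunit. Of the 5 others, RPL21 and RPL10L had 0 counts in every library, which allows up to 3 counts, or 0.225 to 0.324 CPM, and RPL3L, a muscle paralog of RPL3, had 1 count in all. RPL21 encodes a ubiquitous protein. Ribosomal protein genes have near-identical processed pseudogenes, and how reads that match several places were counted is not given in the sources used here, so low values in this family are uncertain. The 28 pseudogene entries of the table held only 515 to 694 counts per library. Divided by coding length, the tested members spanned 18.2 to 3352 CPM per kb, with a median of 844 CPM per kb. RPL41, a peptide of the intersubunit face, was highest at 3352 CPM per kb, followed by RPS24 at 1779 and RPLP0, the base of the stalk, at 1557. The rank of RPL41 rests on its coding length of 75 bases, which leaves out untranslated bases. Before division RPL41 had a mean of 251.4 CPM over all libraries, beside 1481 CPM for RPLP0. The lowest were RPL36A at 18.2, RPL17 at 42.2 and RPS10 at 58.0 CPM per kb. RPL36A at 18.2 and its near-identical paralog RPL36AL at 434 CPM per kb may exchange reads in counting.

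**Figure D1:**
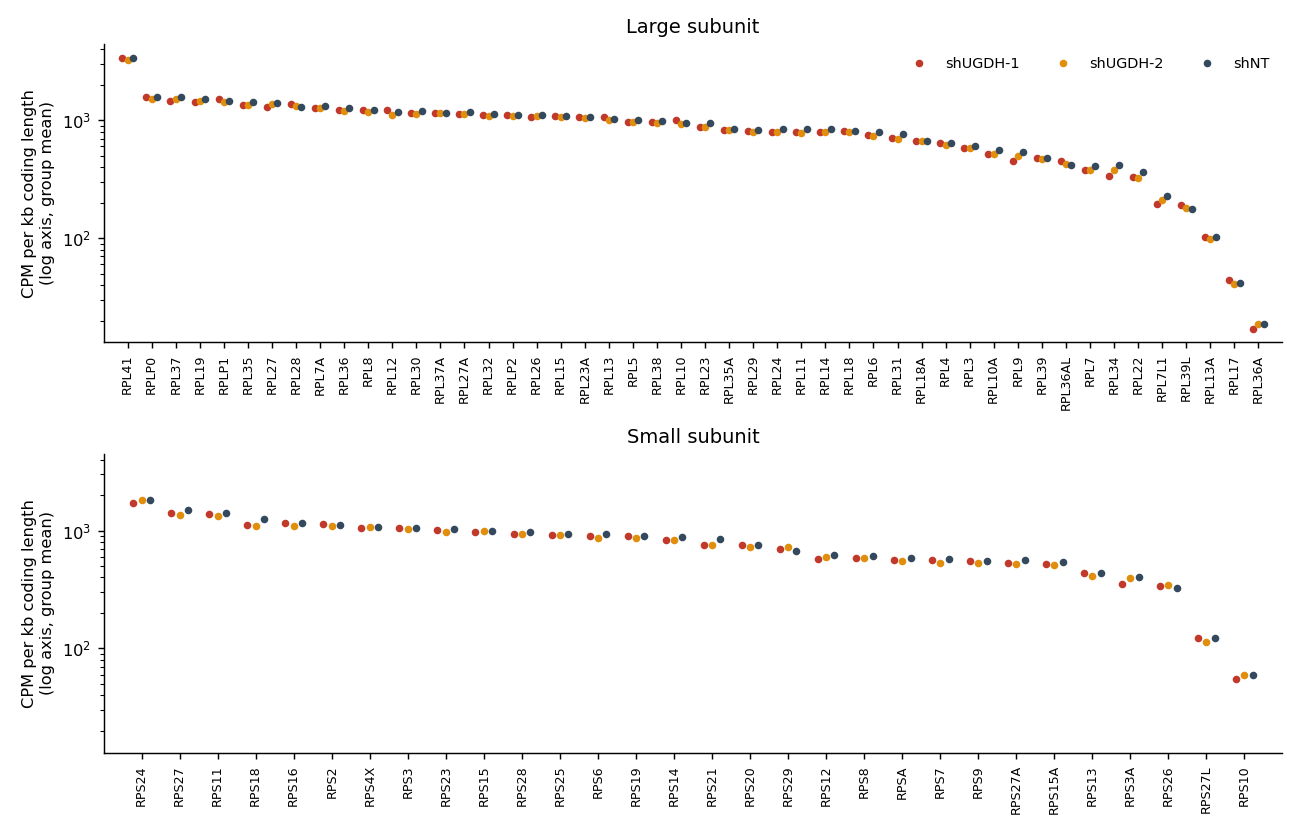
Level of 78 of the 79 tested ribosomal protein genes as CPM per kb of coding length on a log axis, 1 point per group mean of 3 libraries, in the large (top) and small (bottom) subunit. Most members lie between about 335 (RPS26) and 1779 (RPS24) CPM per kb, as means of all libraries, and RPL41 lies above. RPL36A, RPL17, RPL13A, RPS10, RPS27L, RPL39L and RPL7L1 lie below in all 3 groups.

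Ribosomal protein genes took a slightly smaller share of all counts in both knockdowns. Together they held 3.27%, 3.32% and 3.34% of the counts in the shUGDH-1 libraries, 3.29%, 3.25% and 3.27% in the shUGDH-2 libraries, and 3.36%, 3.44% and 3.45% in the shNT libraries. No knockdown library reached the lowest control library, shNT replicate 1. The means were 3.31% ± 0.034 with shUGDH-1, 3.27% ± 0.022 with shUGDH-2 and 3.42% ± 0.050 with shNT (SD, n = 3 each). Wilson 95% intervals of single libraries, which cover counting error only, spanned about 0.02 percentage points, for example 3.33% to 3.35% for shUGDH-1 replicate 3 and 3.35% to 3.37% for shNT replicate 1. In bulk RNA such shares are relative: less of these transcripts per cell, fewer cells with them and more of other transcripts cannot be told apart.

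Both subunits moved together. Large-subunit genes held 2.13% ± 0.021 of counts with shUGDH-1, 2.10% ± 0.013 with shUGDH-2 and 2.19% ± 0.034 with shNT. Small-subunit genes held 1.18% ± 0.013 with shUGDH-1, 1.17% ± 0.0089 with shUGDH-2 and 1.22% ± 0.015 with shNT. The ratio of large- to small-subunit counts was 1.799 ± 0.0060 with shUGDH-1, 1.796 ± 0.0066 with shUGDH-2 and 1.794 ± 0.0051 with shNT, and the groups overlapped. Its highest value was 1.805 in shUGDH-1 replicate 2 and its lowest 1.788 in shNT replicate 1.

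**Figure D2:**
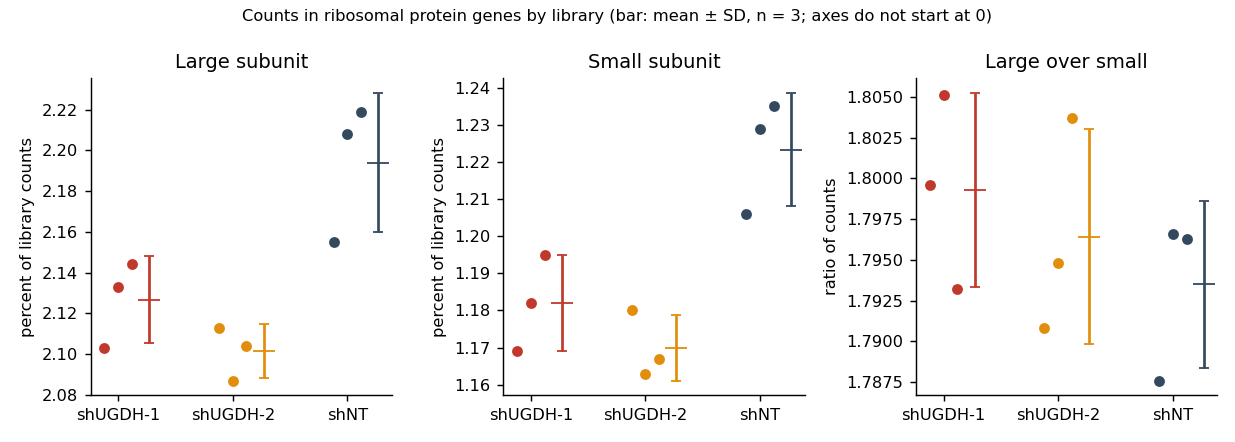
Percent of each library's counts in large-subunit genes (left) and small-subunit genes (middle) and the ratio of these counts (right); points are libraries, and bars are the mean ± SD of 3 libraries. The 6 knockdown libraries lie below the 3 shNT libraries for both subunits, while the ratios overlap.

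With shUGDH-1, 25 of the 79 tested genes were lower than with shNT, 3 were higher and 51 did not pass at an adjusted p under 0.05 (edgeR's quasi-likelihood test, Benjamini-Hochberg over 12546 genes). Over all genes tested, 10.3% were lower and 10.5% higher, against 31.6% and 3.8% of the ribosomal protein genes. The changes were small: the median log2 fold change of the members was -0.039, beside -0.003 for all genes tested. Of 48 large-subunit genes 18 were lower and 3 higher (median -0.039), and of 31 small-subunit genes 7 were lower and 0 higher (median -0.033). The large-subunit median was -0.024 without shUGDH-1 replicate 1 and -0.059 without shNT replicate 1, and the small-subunit median -0.022 without shNT replicate 2. No small-subunit gene was higher at an unadjusted p under 0.05, and DESeq2 also called 0.

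With shUGDH-2, 34 of 79 were lower and 0 higher than with shNT, where 6.81% and 8.04% of all genes tested were lower and higher. At an unadjusted p under 0.05, 2 members were higher, and DESeq2 called 0 higher. The median was -0.059, beside -0.006 for all genes tested. Of the large subunit 21 of 48 genes were lower (median -0.058), and of the small subunit 13 of 31 (median -0.069). The count of lower genes was 20 with DESeq2 and 22 without shNT replicate 2.

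Highly expressed genes are called more often at a given change, so the same counts were made above a minimum level; levels above it were not matched. Among genes with at least 100 CPM, 25 of 72 members (34.7%) were lower with shUGDH-1, against 18.7% of 2412 other genes, and 3 (4.17%) were higher, against 21.0%. With shUGDH-2, 34 of 72 (47.2%) were lower, against 13.4% of the other genes, and 0 were higher, against 18.5%. In shUGDH-1 cells the median of the members was -0.041 and that of the other genes 0.004, and in shUGDH-2 cells -0.060 and 0.001. Ribosomal protein transcripts are also short and of particular base composition. After a linear trend on GC content, transcript length and expression over all genes with an annotation was removed, the medians of the large and small subunit were 0.007 and 0.015 in shUGDH-1 cells, and 0 and -0.005 in shUGDH-2 cells. Without this step they were -0.039 and -0.033 in shUGDH-1 cells, and -0.058 and -0.069 in shUGDH-2 cells.

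The same shNT libraries enter both comparisons, so calls made in both are not independent. Groups did not overlap for 31 members with shUGDH-1 and 37 with shUGDH-2 (for all genes tested, 34.1% and 28.5%), and for 21 between the hairpins (for all genes tested, 27%).

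**Figure D3:**
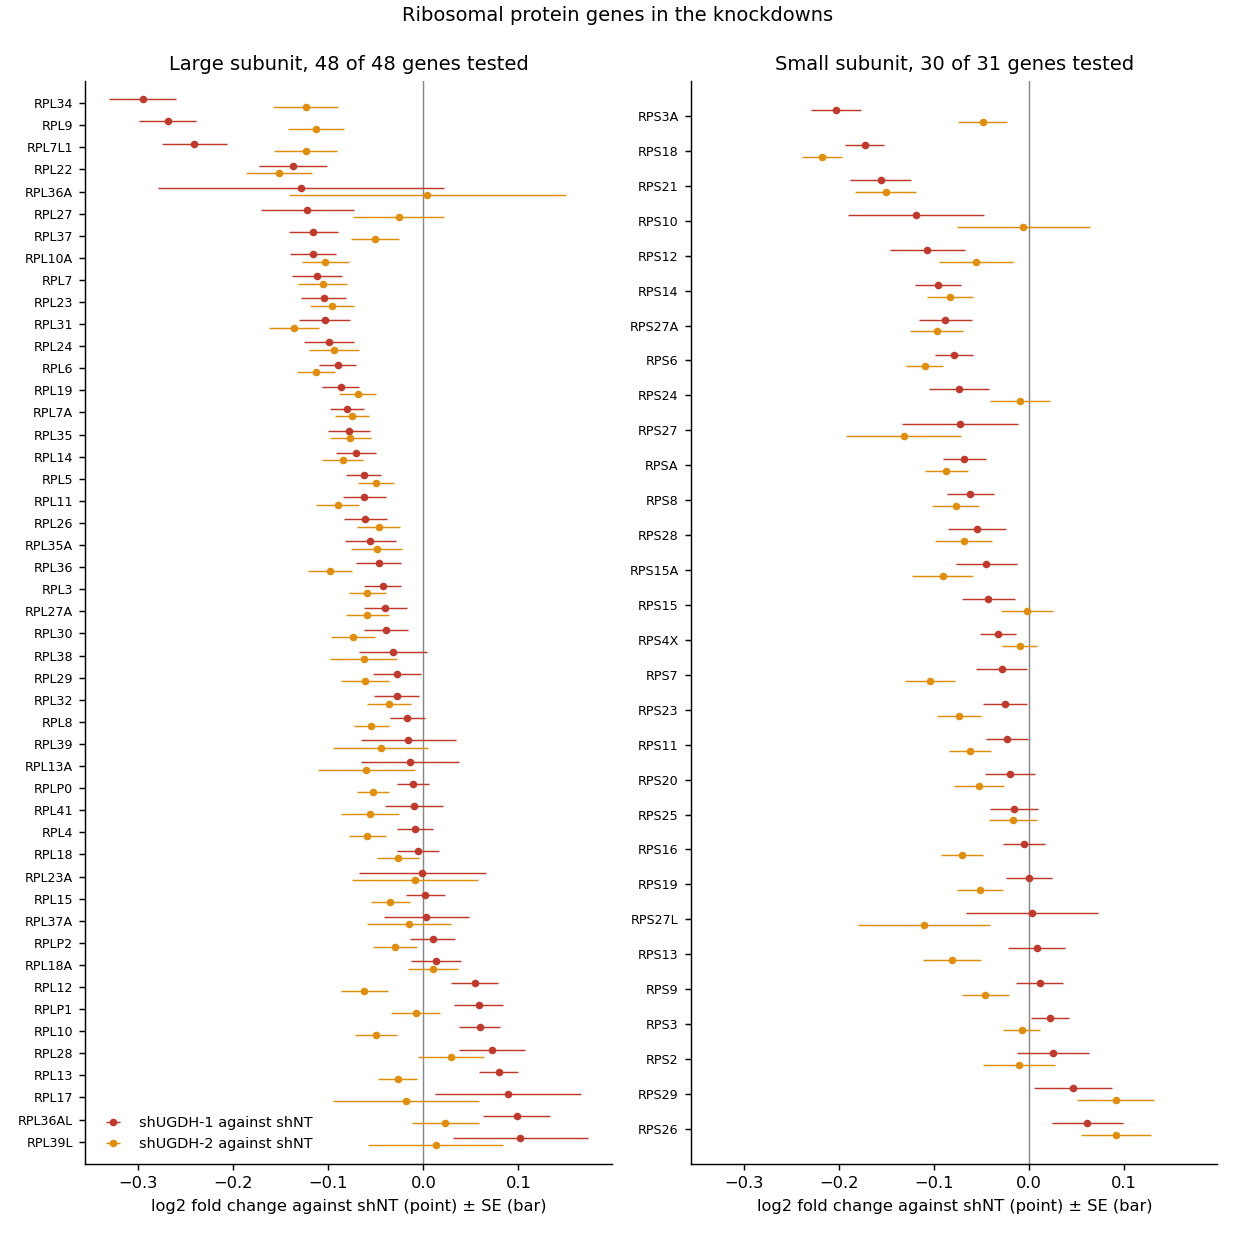
Log2 fold change against shNT (points) ± SE (bars) of 78 of the 79 tested genes with shUGDH-1 and shUGDH-2, for the large (left) and small (right) subunit, in the order of the shUGDH-1 value. Most points lie between -0.15 and 0.05; RPL34, RPL9, RPL7L1 and RPS3A lie farthest below 0 with shUGDH-1 and RPS18 with shUGDH-2.

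The gene with the clearest change in both knockdowns was RPS18, a protein of the small-subunit head at the contact with the large subunit. It had 511.5, 510.2 and 508.8 CPM with shUGDH-1, 502.5, 490.4 and 491 CPM with shUGDH-2, and 571.1, 579.4 and 575.8 CPM with shNT. All 6 knockdown libraries lay below all controls. The log2 fold changes were -0.17 ± 0.021 (adjusted p = 1.22e-09) in shUGDH-1 cells and -0.22 ± 0.021 (adjusted p = 1.03e-12) in shUGDH-2 cells. RPS21, a small-subunit protein that in yeast takes part in the maturation of its ribosomal RNA, had 180.7, 196.7 and 187.9 CPM with shUGDH-1, 194.1, 192.1 and 181.4 CPM with shUGDH-2, and 215.2, 204.2 and 210.6 CPM with shNT. It was lower, with log2 fold changes of -0.16 ± 0.032 in shUGDH-1 cells and -0.15 ± 0.032 in shUGDH-2 cells, again with no overlap.

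RPL22, a large-subunit protein with the paralog RPL22L1, had 123.9, 129.2 and 125.8 CPM with shUGDH-1, 123.7, 122.6 and 129 CPM with shUGDH-2, and 139.5, 136.1 and 141.2 CPM with shNT. RPL31, which lies at the rim of the exit tunnel, had 257.4, 266.9 and 270.9 CPM with shUGDH-1, 258.1, 259.3 and 259.5 CPM with shUGDH-2, and 284.8, 280 and 288.8 CPM with shNT. Neither gene's knockdown libraries overlapped the controls. RPL22 changed by -0.14 ± 0.035 (adjusted p = 0.0026) with shUGDH-1 and -0.15 ± 0.035 (adjusted p = 0.00134) with shUGDH-2, and RPL31 by -0.10 ± 0.026 (adjusted p = 0.00229) in shUGDH-1 cells and -0.14 ± 0.026 (adjusted p = 0.000113) in shUGDH-2 cells. Without shUGDH-1 replicate 1 the first RPL31 call was lost (adjusted p = 0.0568).

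A further 4 genes were lower with shUGDH-1 than with shUGDH-2 as well as lower than with shNT. RPL34, a surface protein of the large subunit, had 116.8, 121.9 and 117.4 CPM with shUGDH-1, 137.1, 133.6 and 130.5 CPM with shUGDH-2, and 143.5, 146.3 and 147.5 CPM with shNT. The 3 groups formed 3 separate levels. Its log2 fold change was -0.29 ± 0.035 (adjusted p = 1.14e-09) with shUGDH-1 and -0.12 ± 0.034 (adjusted p = 0.00803) with shUGDH-2. RPL9, which lies near the docking site of the elongation factors, had 259.6, 259.9 and 257.6 CPM with shUGDH-1, 295.2, 289 and 282.2 CPM with shUGDH-2, and 292.7, 313.3 and 331.7 CPM with shNT. The shUGDH-1 libraries lay below all others, while shUGDH-2 overlapped shNT replicate 1. The log2 fold changes of RPL9 were -0.27 ± 0.030 (adjusted p = 1.28e-09) in shUGDH-1 cells and -0.11 ± 0.030 (adjusted p = 0.00574) in shUGDH-2 cells. With shUGDH-2, the RPL34 call was lost without shUGDH-2 replicate 3 (adjusted p = 0.0663), and the RPL9 call without shUGDH-2 replicate 3 (adjusted p = 0.0579) or shNT replicate 3 (-0.066, adjusted p = 0.155).

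RPS3A, a small-subunit protein near the site where messenger RNA leaves, had 272.9, 283.6 and 282.5 CPM with shUGDH-1, 315, 317.4 and 301.1 CPM with shUGDH-2, and 322.6, 328.9 and 314 CPM with shNT. It fell by 0.20 ± 0.026 on the log2 scale with shUGDH-1 (adjusted p = 1.12e-08), while with shUGDH-2 the groups overlapped and the value was -0.049 ± 0.026 (adjusted p = 0.223). RPL7L1, a paralog of RPL7, had 146.6, 146.4 and 152 CPM with shUGDH-1, 151.4, 166.3 and 163.8 CPM with shUGDH-2, and 177.1, 175.7 and 172.2 CPM with shNT. Both knockdowns lay below the controls, by -0.24 ± 0.034 (adjusted p = 9.43e-08) in shUGDH-1 cells and -0.12 ± 0.033 (adjusted p = 0.00612) in shUGDH-2 cells, the shUGDH-2 call lost without shUGDH-2 replicate 1 (-0.082, adjusted p = 0.137).

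The 3 genes that were higher with shUGDH-1 belong to the large subunit. RPL13 had 684.6, 670.7 and 685.6 CPM with shUGDH-1, 638.8, 626.7 and 630.7 CPM with shUGDH-2, and 634.5, 665.7 and 631.9 CPM with shNT. RPL10, which is added last to the large subunit and is needed for the joining of the subunits, had 646.7, 630.8 and 641.7 CPM with shUGDH-1, 610.7, 573.9 and 594.8 CPM with shUGDH-2, and 614.7, 629.8 and 596.9 CPM with shNT. For both, the shUGDH-1 libraries lay above all others, by a narrow gap for RPL10. RPL13 rose by 0.079 ± 0.021 (adjusted p = 0.00326) and RPL10 by 0.059 ± 0.022 (adjusted p = 0.0431) on the log2 scale. RPL36AL rose by 0.098 ± 0.036 (adjusted p = 0.0387), with 141.6, 140.3 and 149.9 CPM with shUGDH-1, 134, 138.2 and 136.4 CPM with shUGDH-2, and 136.4, 128.6 and 137 CPM with shNT. RPL10 no longer passed under 8 of 19 alternatives, which include leaving out any shUGDH-1 library or shNT replicate 1 or 3 (adjusted p up to 0.268). RPL36AL no longer passed under 4 of 19, which include leaving out shUGDH-1 replicate 3 (adjusted p = 0.213) or shNT replicate 2 (adjusted p = 0.202). DESeq2 called 1 gene higher with shUGDH-1.

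**Figure D4:**
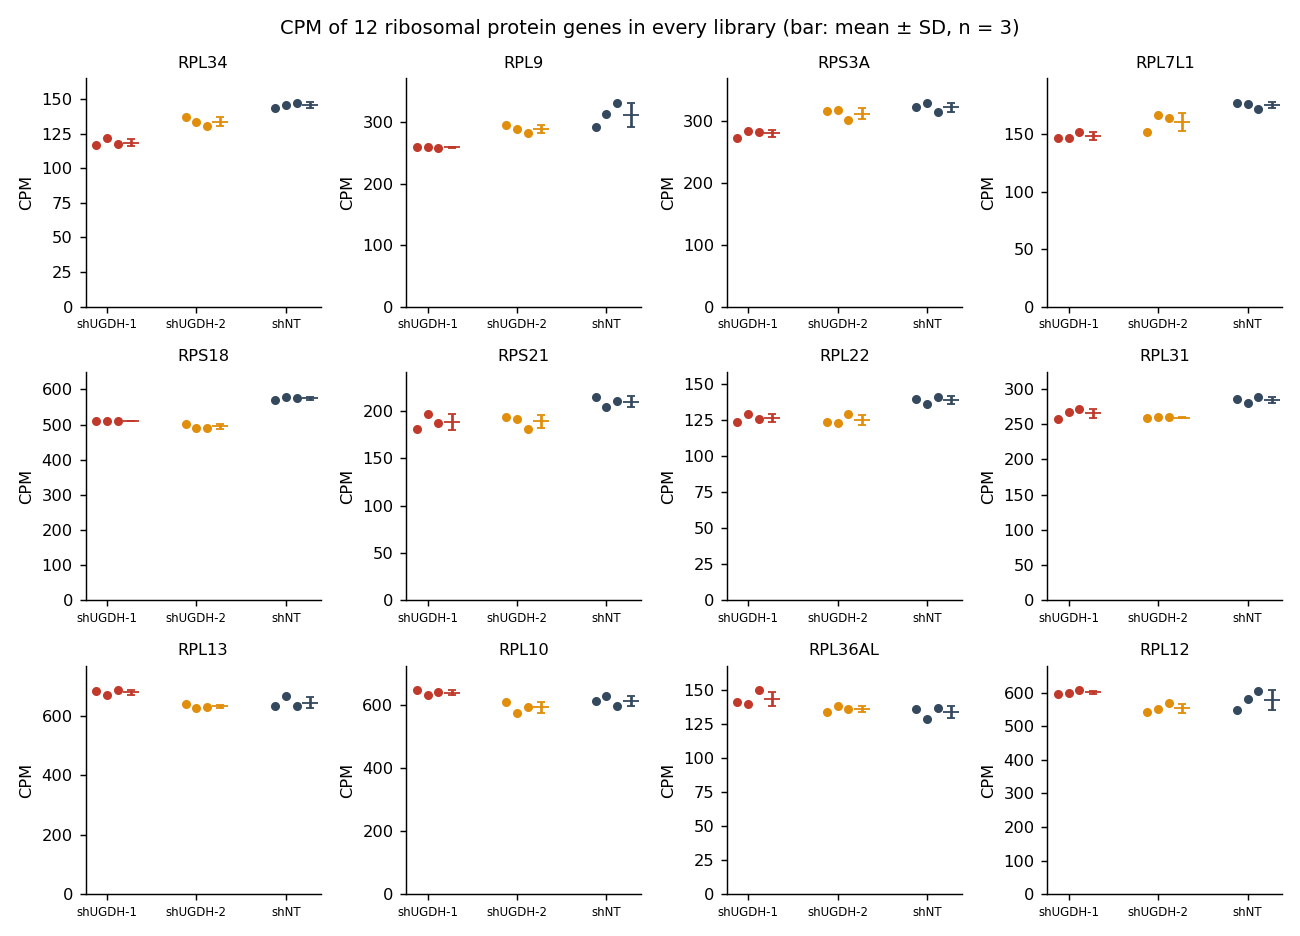
CPM of 12 ribosomal protein genes in every library (points), with the mean ± SD of 3 libraries (bars), on axes that start at 0. The top row shows genes lowest with shUGDH-1, the middle row genes low with both hairpins, and the bottom row genes whose shUGDH-1 libraries all lie above the shUGDH-2 libraries.

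Proteins of the stalk, which recruits elongation factors, differed little. RPLP0 had 1504, 1487 and 1481 CPM with shUGDH-1, 1463, 1431 and 1452 CPM with shUGDH-2, and 1491, 1533 and 1485 CPM with shNT. It was lower with shUGDH-2 by -0.053 ± 0.017 (adjusted p = 0.0223), with no overlap, a call that did not pass under 6 of 19 alternatives, which include leaving out shUGDH-2 replicate 2 or 3 or shNT replicate 2 (adjusted p up to 0.214). Its value with shUGDH-1 was -0.011 ± 0.017 (adjusted p = 0.701). RPLP1 and RPLP2 did not pass with either hairpin, with log2 fold changes of 0.058 and 0.010 in shUGDH-1 cells and -0.008 and -0.030 in shUGDH-2 cells. RPL12, which anchors the stalk beside RPLP0, had 595.7, 600.2 and 606.8 CPM with shUGDH-1, 542.6, 551.2 and 568.7 CPM with shUGDH-2, and 548.3, 582.6 and 606.3 CPM with shNT. The shNT libraries of RPL12 spanned both knockdown groups, and neither comparison with shNT passed. Without shNT replicate 3 RPL12 was higher with shUGDH-1 (adjusted p = 0.00898), and without shNT replicate 1 it was lower with shUGDH-2 (adjusted p = 0.000681). Leaving out shUGDH-1 replicate 1 (adjusted p = 0.00851) or shNT replicate 3 (adjusted p = 0.021) made RPLP1 higher with shUGDH-1.

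RPL5 and RPL11, which carry 5S ribosomal RNA into the large subunit and bind the ubiquitin ligase MDM2 when free, were a little lower. RPL5 had 853.3, 868.2 and 860.6 CPM with shUGDH-1, 871.8, 884.2 and 850.1 CPM with shUGDH-2, and 897.6, 899.2 and 901.5 CPM with shNT, with no overlap in either comparison. Its log2 fold change was -0.063 ± 0.019 (adjusted p = 0.00942) with shUGDH-1 and -0.050 ± 0.019 (adjusted p = 0.0584) with shUGDH-2. The first was lost without shUGDH-1 replicate 1 (adjusted p = 0.078), and the second passed without shUGDH-2 replicate 2 (adjusted p = 0.0393). RPL11 had 428.4, 430.4 and 424.6 CPM with shUGDH-1, 418.3, 412.4 and 428.7 CPM with shUGDH-2, and 437.3, 450.8 and 452.2 CPM with shNT. It was lower, with log2 fold changes of -0.062 ± 0.023 (adjusted p = 0.0431) in shUGDH-1 cells and -0.090 ± 0.023 (adjusted p = 0.00335) in shUGDH-2 cells, and the first of these calls did not pass under 9 of 19 alternatives, which include leaving out any shUGDH-1 library, shUGDH-2 replicate 1 or shNT replicate 2 or 3 (adjusted p up to 0.166).

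RPS6, the substrate of the S6 kinases, had 661.6, 659.6 and 675.6 CPM with shUGDH-1, 656.2, 651.8 and 644.3 CPM with shUGDH-2, and 706.2, 698.9 and 702.2 CPM with shNT. All knockdown libraries lay below all controls, and the log2 fold changes were -0.079 ± 0.020 (adjusted p = 0.00186) in shUGDH-1 cells and -0.11 ± 0.020 (adjusted p = 2.44e-05) in shUGDH-2 cells. RPS27A, made as a fusion with ubiquitin, had 240.7, 242.9 and 254.2 CPM with shUGDH-1, 245.8, 249 and 236.6 CPM with shUGDH-2, and 261.7, 265.7 and 255.2 CPM with shNT. Its log2 fold changes were -0.088 ± 0.028 (adjusted p = 0.0174) in shUGDH-1 cells and -0.097 ± 0.028 (adjusted p = 0.0106) in shUGDH-2 cells, with no overlap. The RPS27A call with shUGDH-1 was lost without shUGDH-1 replicate 1 or 2 or shNT replicate 2 (adjusted p up to 0.131), and that with shUGDH-2 without shUGDH-2 replicate 3 or shNT replicate 2 (adjusted p up to 0.115).

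RPSA, which is also known as a laminin receptor, was lower with both hairpins, by -0.068 ± 0.023 (adjusted p = 0.024, groups overlapping) in shUGDH-1 cells and -0.087 ± 0.023 (adjusted p = 0.00455, no overlap) in shUGDH-2 cells. The first of these calls did not pass under 6 of 19 alternatives, which include leaving out shUGDH-1 replicate 2 or 3 or shNT replicate 1 or 2 (adjusted p up to 0.192), and the second was lost without shUGDH-2 replicate 2 (adjusted p = 0.0561). RPL3, which reaches towards the site of peptide bond formation, was at -0.043 ± 0.020 (adjusted p = 0.117) with shUGDH-1 and was lower with shUGDH-2, at -0.059 ± 0.020 (adjusted p = 0.0315), a call lost under 12 of 19 alternatives, which include leaving out any library other than shUGDH-2 replicate 1 (adjusted p up to 0.21). RPS3, at the entry of the messenger RNA channel, had 755.7 to 790.7 CPM with shUGDH-1, 741.1 to 761.8 CPM with shUGDH-2 and 753 to 765.5 CPM with shNT. Its values of 0.022 ± 0.020 (adjusted p = 0.483) in shUGDH-1 cells and -0.008 ± 0.020 (adjusted p = 0.854) in shUGDH-2 cells did not pass.

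Between the hairpins, shUGDH-2 against shUGDH-1, 6 of 79 members were lower and 4 higher, shares of 7.59% and 5.06% beside 5.51% and 5.36% of all genes tested. The median was -0.021, beside -0.001 for all genes tested. The 4 higher with shUGDH-2 were RPL34 (0.17 ± 0.036, adjusted p = 0.000352), RPL9 (0.16 ± 0.030, adjusted p = 0.000184), RPS3A (0.15 ± 0.026, adjusted p = 1.15e-05) and RPL7L1 (0.12 ± 0.034, adjusted p = 0.0156). In each of the first 3 every shUGDH-2 library lay above every shUGDH-1 library. RPL7L1 no longer passed under 5 of 19 alternatives, which include leaving out shUGDH-2 replicate 2 or 3 or shUGDH-1 replicate 1 or 2 (adjusted p up to 0.142). Lower with shUGDH-2 were RPL12 (-0.12 ± 0.025, adjusted p = 0.00093), RPL10 (-0.11 ± 0.022, adjusted p = 0.000189) and RPL13 (-0.11 ± 0.021, adjusted p = 0.000134).

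RPS13 and RPS16 of the small subunit were also lower with shUGDH-2 than with shUGDH-1. RPS13 changed by -0.088 ± 0.030 (adjusted p = 0.0464). RPS16, whose tail reaches a transfer RNA in the decoding centre, changed by -0.066 ± 0.022 (adjusted p = 0.0414) and is named in addition because the count is small. The groups overlapped for RPS16, with 491.5, 506.3 and 511.1 CPM with shUGDH-1 and 492.8, 478 and 469.7 CPM with shUGDH-2. Its call was not followed under the alternatives. RPS13 no longer passed under 14 of 19 alternatives, which include leaving out any shUGDH-2 library, shUGDH-1 replicate 1 or 2 or shNT replicate 3 (adjusted p up to 0.205).

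Of the 4 genes with the largest changes with shUGDH-1, 3 lie on chromosome 4 and RPL7L1 lies on chromosome 6. RPL9, RPL34 and RPS3A are the 3 tested members on chromosome 4, and UGDH itself lies on this chromosome, 39.8 kb from RPL9 (GENCODE 29 on GRCh38; the authors used hg19). With shUGDH-1 the 3 had a median log2 fold change of -0.27, and the 417 other tested genes of chromosome 4 had a median of -0.17, with 46.0% called lower. With shUGDH-2 the 3 had a median of -0.11 and the other genes -0.031, with 12.7% lower. By library, the other genes of chromosome 4 had medians of -0.15, -0.17 and -0.17 in shUGDH-1 libraries, -0.042, -0.020 and -0.033 in shUGDH-2 libraries, and 0.029, -0.017 and -0.015 with shNT, all relative to the shNT mean. The lower values of these 3 genes stood beside a lower median of the whole chromosome in each of the 3 shUGDH-1 libraries, and its part in them was not tested.

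Chromosome 6 showed a smaller shift of the same kind. Its 5 tested members, RPS18, RPS10, RPL10A, RPL7L1 and RPS12, were all below 0 with shUGDH-1 (median -0.12), and its 604 other tested genes had a median of -0.076 with 21.7% lower. With shUGDH-2 these members had a median of -0.10, and the other genes -0.008 with 8.28% lower. RPS18 and RPL10A, a large-subunit protein, were lower with both hairpins (RPL10A by -0.12 ± 0.025 in shUGDH-1 cells and -0.10 ± 0.024 in shUGDH-2 cells). On chromosome X the 388 other genes had a median of -0.083 with shUGDH-1 and 25% were lower, yet RPL10 was higher and RPS4X (-0.033), RPL39 (-0.016) and RPL36A (-0.13) did not pass. On chromosome 20, where 21.9% of 320 other genes were lower and 13.1% higher with shUGDH-1 (median -0.031), RPS21 is the 1 tested member.

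Across the 79 members, the log2 fold change with shUGDH-1 and the median of the tested genes within 5 Mb on each side gave a Pearson r of 0.68 (Spearman rho 0.52). With shUGDH-2 the values were 0.19 and 0.19, and between the hairpins 0.61 and 0.43. Neighbouring members share much of their window, so these are descriptions. Of the 25 members lower in shUGDH-1 cells, 18 lie outside chromosomes 4, 6, 20 and X, and of the 34 lower in shUGDH-2 cells, 28 do. Of all genes tested, on any chromosome, 10.3% were lower with shUGDH-1 and 6.81% with shUGDH-2. The 4 members higher between the hairpins all lie on chromosomes 4 and 6, so that 0 remain outside these chromosomes follows from the choice. With the median of each chromosome subtracted, the medians with shUGDH-1 were -0.043 and -0.035 for the large and small subunit, and with shUGDH-2 -0.056 and -0.068.

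**Figure D5:**
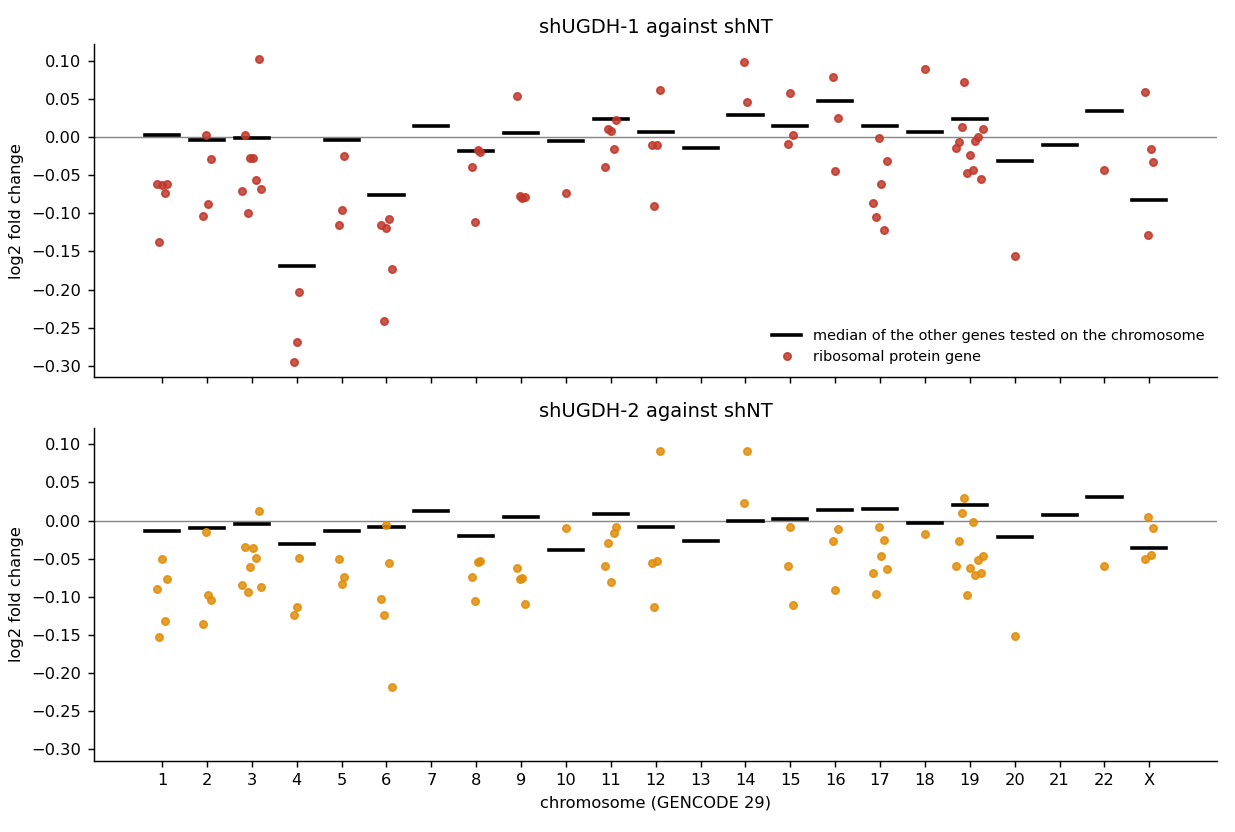
Log2 fold change against shNT of 78 of the 79 tested ribosomal protein genes (points) and the median of the other tested genes (black bars) by chromosome, with shUGDH-1 (top) and shUGDH-2 (bottom). With shUGDH-1 the bar of chromosome 4 lies at -0.17, above its 3 ribosomal protein genes, and with shUGDH-2 most points lie below 0 on nearly every chromosome.

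The TOP motif lies at the start of the transcript, and the start is shown here for members described above. The windows, from RefSeq (GRCh38.p14, the transcribed strand, 20 bases before to 20 bases from an annotated start), are those of genes low with both hairpins, the genes of chromosome 4, the genes higher with shUGDH-1 and RPL7L1. Capitals mark the longest pyrimidine run of at least 6 bases that touches positions -10 to 15 around the start. Such a run need not lie at the start itself: that of RPL9 begins 5 bases after it.
RPS18, chr6:33272055-33272094, plus strand: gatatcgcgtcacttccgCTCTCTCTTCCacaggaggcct
RPS21, chr20:62387083-62387122, plus strand: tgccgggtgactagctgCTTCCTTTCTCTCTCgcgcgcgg
RPL22, chr1:6199576-6199615, minus strand: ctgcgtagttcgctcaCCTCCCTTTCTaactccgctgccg
RPL31, chr2:101002269-101002308, plus strand: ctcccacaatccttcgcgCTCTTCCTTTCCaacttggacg
RPL34, chr4:108620556-108620595, plus strand: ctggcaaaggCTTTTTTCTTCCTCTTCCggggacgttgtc
RPL9, chr4:39458903-39458942, minus strand: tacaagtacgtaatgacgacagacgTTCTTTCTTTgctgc
RPS3A, chr4:151099608-151099647, plus strand: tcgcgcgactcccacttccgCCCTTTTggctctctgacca
RPL13, chr16:89560662-89560701, plus strand: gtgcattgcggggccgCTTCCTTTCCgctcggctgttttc
RPL10, chrX:154398357-154398396, plus strand: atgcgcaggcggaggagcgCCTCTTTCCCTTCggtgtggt
RPL36AL, chr14:49620607-49620646, minus strand: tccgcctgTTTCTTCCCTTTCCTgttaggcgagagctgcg
RPL7L1, chr6:42879596-42879635, plus strand: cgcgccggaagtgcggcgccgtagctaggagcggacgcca

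A pyrimidine run of at least 6 bases (only C and T, on the transcribed strand, touching positions -10 to 15 around a start) was found in 59 of the 66 members with an entry (89.4%), against 40.5% of 27305 genes. Of the windows shown, all but that of RPL7L1, a gene without a run at any annotated start, hold one, in genes lower with both hairpins and in genes higher with shUGDH-1. RPL10 and RPL13 have 3 annotated starts and RPL34 has 2. For these the start with a run, and then with the longest run, was chosen for display, so their windows favour a run by selection. The 58 tested members with a run had medians of -0.041 in shUGDH-1 cells and -0.059 in shUGDH-2 cells, and the 6 without had -0.038 in shUGDH-1 cells and -0.085 in shUGDH-2 cells. On either strand of the whole 300 bases, CCGGAA was found in 57.6% of the members and 20.1% of all genes, ATGGCG in 40.9% and 12.7%, GGGCGG in 59.1% and 48.3%, and TATAAA in 9.09% and 14.0%. CTTTCC, searched on the transcribed strand alone within the 40 bases around the start, where it can be part of a pyrimidine run, was found in 31.8% of the members and 2.56% of all genes. In shUGDH-1 cells the medians of tested members with and without a motif were -0.041 and -0.034 for CCGGAA, -0.043 and -0.040 for ATGGCG, -0.029 and -0.073 for GGGCGG, -0.043 and -0.040 for TATAAA, and -0.005 and -0.043 for CTTTCC. In shUGDH-2 cells they were -0.061 and -0.052 for CCGGAA, -0.057 and -0.080 for GGGCGG and -0.043 and -0.061 for CTTTCC, and -0.059 with and without ATGGCG or TATAAA. These differences were not tested.

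Some ribosomal proteins have paralogs that can stand in for them. RPL39L, the paralog of the exit tunnel protein RPL39, had 28.4, 29.4 and 29.4 CPM with shUGDH-1, 28.2, 26.6 and 27.2 CPM with shUGDH-2, and 24.8, 29.2 and 27.3 CPM with shNT, and the groups overlapped. RPL39 itself had 64.97 to 77.11 CPM over the 9 libraries and passed in no comparison. RPS27 and its paralog RPS27L also passed in none, with log2 fold changes of 0.003 ± 0.069 (RPS27L) and -0.073 ± 0.061 (RPS27) in shUGDH-1 cells and -0.11 ± 0.070 (RPS27L) and -0.13 ± 0.061 (RPS27) in shUGDH-2 cells. RPS27L had 25.7 to 32.05 CPM. RPS27 had 341, 355.7 and 374.3 CPM with shUGDH-1, 338.8, 338.1 and 348.9 CPM with shUGDH-2, and 342, 383.1 and 400.3 CPM with shNT. Without shNT replicate 1, the lowest control, RPS27 was lower with both hairpins, at -0.14 (adjusted p = 2.33e-05) in shUGDH-1 cells and -0.20 (adjusted p = 3.55e-09) in shUGDH-2 cells. RPL7, the parent of RPL7L1, was lower with both hairpins, by -0.11 ± 0.026 (adjusted p = 0.00077) in shUGDH-1 cells and -0.11 ± 0.026 (adjusted p = 0.00248) in shUGDH-2 cells, and its value between the hairpins was 0.007 ± 0.026 (adjusted p = 0.923). RPL36A, with 4.99 to 6.55 CPM, had values of -0.13 ± 0.15 with shUGDH-1 and 0.004 ± 0.15 with shUGDH-2.

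Precision differed among abundant members. Over the 72 tested members with at least 100 CPM, the SE of the shUGDH-1 fold change lay between 0.0169 and 0.0664, with a median of 0.025. The highest belonged to RPL23A, RPS27 and RPL27, named after their values were seen. RPL23A had 471.9, 511.6 and 508 CPM with shUGDH-1, 490.6, 500.4 and 490.8 CPM with shUGDH-2, and 457.1, 491.3 and 544.6 CPM with shNT. RPL27 had 504.6, 543.6 and 530.7 CPM with shUGDH-1, 564.1, 544.5 and 578.6 CPM with shUGDH-2, and 535.9, 576.7 and 605.9 CPM with shNT. In both, shNT replicate 1 was the lowest control, and the knockdown libraries lay within or overlapped the controls.

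Some genes that build ribosomes were also lower. Of 41 assembly factors, 16 (39.0%) were lower and 0 higher with shUGDH-1 (median -0.092), and 14 (34.1%) were lower and 0 higher with shUGDH-2 (median -0.079). Of all genes tested, 10.3% were lower and 10.5% higher with shUGDH-1, and 6.81% were lower and 8.04% higher with shUGDH-2. DESeq2 called 13 and 9 lower and 0 higher in both, and at an unadjusted p under 0.05 1 and 0 were higher. RRS1, needed for large-subunit assembly, had 37.0, 41.3 and 40.2 CPM with shUGDH-1, 37.2, 40.3 and 37.8 CPM with shUGDH-2, and 47.2, 46.4 and 47.5 CPM with shNT. Its log2 fold changes were -0.25 ± 0.058 (adjusted p = 0.000637) in shUGDH-1 cells and -0.29 ± 0.058 (adjusted p = 0.000157) in shUGDH-2 cells, and the groups did not overlap. BYSL, needed for small-subunit assembly, was lower, with log2 fold changes of -0.29 ± 0.046 in shUGDH-1 cells and -0.18 ± 0.045 in shUGDH-2 cells. LTV1, a small-subunit export factor, was lower with shUGDH-1, at -0.25 ± 0.048, and was at -0.10 ± 0.047 (adjusted p = 0.151) with shUGDH-2. GAR1, a protein of the pseudouridylation particles, was lower, with log2 fold changes of -0.41 ± 0.078 in shUGDH-1 cells and -0.25 ± 0.075 in shUGDH-2 cells. The GAR1 call with shUGDH-2 was lost under 4 of 19 alternatives, which include leaving out shUGDH-2 replicate 1 or 2 or shNT replicate 1 (-0.15 without the last, adjusted p = 0.263). GAR1 lies on chromosome 4, and BYSL and LTV1 on chromosome 6.

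For the synthesis of ribosomal RNA by RNA polymerase I, 2 of 15 genes (13.3%, near the 10.3% of all genes tested) were lower with shUGDH-1 and 3 (20%, beside 6.81%) with shUGDH-2. The medians were -0.087 with shUGDH-1 and -0.061 with shUGDH-2. POLR1B, the second-largest subunit, had 63.1, 57.4 and 56.2 CPM with shUGDH-1, 61.0, 66.3 and 63.3 CPM with shUGDH-2, and 72.5, 71.6 and 68.6 CPM with shNT. It was lower, with log2 fold changes of -0.26 ± 0.050 (adjusted p = 4.18e-05) in shUGDH-1 cells and -0.16 ± 0.049 (adjusted p = 0.0188) in shUGDH-2 cells, the second lost under 5 of 19 alternatives, which include leaving out shUGDH-2 replicate 1 or 3 or shNT replicate 1 or 2 (adjusted p up to 0.134). RRN3, which recruits the polymerase, was lower, with log2 fold changes of -0.16 ± 0.060 (adjusted p = 0.0457) in shUGDH-1 cells and -0.21 ± 0.060 (adjusted p = 0.0103) in shUGDH-2 cells, the first lost under 14 of 19 alternatives, which include leaving out any library other than shNT replicate 1, and the second under 3, which include leaving out shUGDH-2 replicate 2 or shNT replicate 3. TAF1D passed with shUGDH-2, at -0.16 ± 0.056 (adjusted p = 0.0397), a call lost under 10 of 19 alternatives, which include leaving out any shUGDH-2 or shNT library (adjusted p up to 0.162). ZNRD1 had 6.24 to 10.5 CPM and passed in neither comparison. DESeq2 called 1 and 0 genes of this list lower.

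Translation factors whose messenger RNAs carry the TOP motif had 5 of 15 (33.3%) lower and 1 higher with shUGDH-1 (median -0.013) and 4 (26.7%) lower and 0 higher with shUGDH-2 (median -0.064; unadjusted and by DESeq2 0 higher), beside 10.3% and 6.81% of all genes tested lower with shUGDH-1 and shUGDH-2. EEF1A1, the factor that brings aminoacyl-tRNA, had 4298, 4257 and 4297 CPM with shUGDH-1, 4185, 4117 and 4249 CPM with shUGDH-2, and 4583, 4503 and 4485 CPM with shNT. It was lower, with log2 fold changes of -0.079 ± 0.014 (adjusted p = 1.96e-05) in shUGDH-1 cells and -0.11 ± 0.014 (adjusted p = 1.04e-08) in shUGDH-2 cells. EEF1A1 lies on chromosome 6, whose 604 other tested genes had a median of -0.076 with shUGDH-1 and -0.008 with shUGDH-2. EEF2, the translocase, was lower with shUGDH-1 (-0.11 ± 0.015, adjusted p = 4.28e-08), at -0.033 ± 0.015 (adjusted p = 0.143) with shUGDH-2, and higher with shUGDH-2 than with shUGDH-1 (0.078, adjusted p = 0.000118). EIF3E was lower with both (-0.084 ± 0.024 in shUGDH-1 cells and -0.097 ± 0.024 in shUGDH-2 cells) and EIF4A2 with shUGDH-1 (-0.12 ± 0.029, adjusted p = 0.00216).

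Chaperones and importers of ribosomal proteins had 3 of 13 (23.1%) lower with shUGDH-1 and 5 (38.5%) with shUGDH-2, with medians of -0.043 and -0.036. Of all genes tested, 10.3% and 6.81% were lower, and DESeq2 called 1 and 2 of the 13 lower. The importers IPO7 (-0.11 ± 0.024 in shUGDH-1 cells and -0.079 ± 0.024 in shUGDH-2 cells) and TNPO1 (-0.15 ± 0.049 in shUGDH-1 cells and -0.19 ± 0.049 in shUGDH-2 cells) were lower with both, and BCCIP (-0.22 ± 0.047) and BTF3 (-0.082 ± 0.024) passed with shUGDH-2. With shUGDH-2 the IPO7 call was lost without shUGDH-2 replicate 1 or 3 or shNT replicate 1 (-0.051, adjusted p = 0.191, without the last), the TNPO1 call without shUGDH-2 replicate 1 (adjusted p = 0.077) and the BTF3 call without shUGDH-2 replicate 1 or shNT replicate 3 (adjusted p up to 0.135). The TNPO1 call with shUGDH-1 was lost without any 1 of the shUGDH-1 libraries or shUGDH-2 replicate 1 (adjusted p up to 0.109), and without shNT replicate 1 TNPO1 was at -0.089 with shUGDH-1 and -0.125 with shUGDH-2. Of 5 ribosomal proteins with other names, 1 (20%) was lower with shUGDH-1 and 2 (40%) with shUGDH-2, beside 10.3% and 6.81% of all genes tested. RPL26L1 was lower with both (-0.21 ± 0.069 in shUGDH-1 cells and -0.23 ± 0.069 in shUGDH-2 cells). Both calls were lost under 5 of 19 alternatives, that with shUGDH-1 without shUGDH-1 replicate 1 or 2 or shNT replicate 2 or 3 (adjusted p up to 0.211) and that with shUGDH-2 without shUGDH-2 replicate 1 or 3 or shNT replicate 2 or 3 (adjusted p up to 0.104). FAU, a fusion that yields a small-subunit protein, was lower with shUGDH-2 (-0.078 ± 0.027, adjusted p = 0.0407), a call lost under 13 of 19 alternatives, which include leaving out any 1 library. GNB2L1 and RPL22L1 passed in neither. DESeq2 called 0 of these 5 lower.

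Mitochondrial ribosomal proteins, which build a separate ribosome, had 14 of 78 (17.9%, beside 10.3% of all genes tested) lower and 0 higher with shUGDH-1 (median -0.061). With shUGDH-2 7 (8.97%, near the 6.81% of all genes tested) were lower and 0 higher (median -0.073). At an unadjusted p under 0.05, 1 and 0 were higher, and DESeq2 called 6 and 1 lower and 0 higher. Of the genes named next, MRPS10 and MRPL14 lie on chromosome 6. MRPS10 was lower, with log2 fold changes of -0.21 ± 0.042 in shUGDH-1 cells and -0.16 ± 0.041 in shUGDH-2 cells, and MRPL45 was lower too, with -0.19 ± 0.048 in shUGDH-1 cells and -0.14 ± 0.047 in shUGDH-2 cells. The MRPL45 call with shUGDH-2 was lost under 5 of 19 alternatives, which include leaving out shUGDH-2 replicate 1 or 3 or shNT replicate 1 or 2 (adjusted p up to 0.198). MRPL14 was lower, with log2 fold changes of -0.13 ± 0.048 in shUGDH-1 cells and -0.16 ± 0.048 in shUGDH-2 cells, the first lost under 15 of 19 alternatives, which include leaving out any library other than shUGDH-2 replicate 3, and the second under 4, which include leaving out shUGDH-2 replicate 1 or 2 or shNT replicate 1. MRPS12 passed with shUGDH-2 (-0.18 ± 0.055, adjusted p = 0.0157), a call lost under 5 of 19 alternatives, which include leaving out shUGDH-2 replicate 2 or 3 or shNT replicate 2 or 3 (adjusted p up to 0.0831).

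Of 21 regulators of ribosome production, 3 were lower and 3 higher with shUGDH-1 (14.3% each, near the 10.3% and 10.5% of all genes tested; median 0.021). With shUGDH-2, 0 were lower and 7 higher (33.3%, beside 8.04% of all genes tested), with a median of 0.064. At an unadjusted p under 0.05, 0 were lower, and DESeq2 called 0 lower and 4 higher. MYC, which activates ribosomal genes, had 535.4, 536.9 and 528.2 CPM with shUGDH-1, 616.4, 596.3 and 624.9 CPM with shUGDH-2, and 553.3, 568.5 and 556.4 CPM with shNT. The 3 groups did not overlap: it was lower with shUGDH-1 (-0.068 ± 0.021, adjusted p = 0.0163) and higher with shUGDH-2 (0.13 ± 0.021, adjusted p = 3.75e-06). The MYC call with shUGDH-1 was lost under 4 of 19 alternatives, which include leaving out shUGDH-1 replicate 1 or 3 or shNT replicate 2 (adjusted p up to 0.109). CDKN1A, an inhibitor of the cell cycle, was higher with both (0.25 ± 0.033 in shUGDH-1 cells and 0.17 ± 0.033 in shUGDH-2 cells). EIF4E, the cap-binding protein, lies on chromosome 4 and was lower with shUGDH-1 (-0.40 ± 0.061, adjusted p = 4.29e-06).

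In the authors' deposited tables, which hold their own fit, 23 members were lower and 1 higher of 72 with an adjusted p for shUGDH-1, and 28 lower and 0 higher of 73 for shUGDH-2, at the same threshold. The median log2 fold changes there were -0.039 and -0.058. The share of all genes called in the authors' fit was not taken, so these counts have no background beside them.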

How the data were processed

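The deposited counts are raw reads per gene: whole numbers whose sums differ by library. The submitters' processing notes name hg19, STAR, DESeq and DESeq2. Not given in the sources used here are versions, the gene annotation, how reads were counted and whether strand was used. Other files deposited by the authors hold a log2 fold change and an adjusted p-value per gene, used only for the last comparison.

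The members and gene lists were chosen with earlier results of these data known. The named genes are UGDH; up to 5 lower and 5 higher called members per comparison at 5 CPM or more; the 3 highest and 3 lowest levels per kb; members with a set role; paralogs; and up to 4 genes of each other list. edgeR 4.0.16 (R 4.3.3) filtered genes with filterByExpr (12546 kept), scaled by TMM and fitted a robust quasi-likelihood model to all 9 libraries with a mean per group. Genes passed at a Benjamini-Hochberg adjusted p under 0.05. A date stands in place of a symbol in 28 entries (about 0.232% of counts), which stayed in the fit unnamed. Annotation by symbol from GENCODE 29 matched 83 of 84 members and 92.6% of tested genes. Alternatives used DESeq2 1.42.0 and limma 3.58.1. The fit was tested on simulated data with known changes. Mitochondrially encoded genes were not analysed here. Histone genes, as a sign of RNA quality, held 0.0134% of counts with shUGDH-1, 0.0103% with shUGDH-2 and 0.0115% with shNT. Results for a few other genes are not reported here.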

Additional observations from a re-analysis of the deposited data

Results flagged for a closer look

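For 9 members reported here the 2 hairpins gave different values by a direct test of shUGDH-2 against shUGDH-1 (edgeR's quasi-likelihood test, adjusted p under 0.05). On the log2 scale RPL34 was higher with shUGDH-2 by 0.17, RPL9 by 0.156, RPS3A by 0.155 and RPL7L1 by 0.117. The first 3 of these lie on chromosome 4 and RPL7L1 on chromosome 6. The values of RPL12 (-0.116), RPL10 (-0.109), RPL13 (-0.106), RPS13 (-0.088) and RPS16 (-0.066) were lower with shUGDH-2. A further 69 tested members did not pass this test, which does not show that the hairpins act alike on them.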

How the results depend on the processing

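The direction of the medians against shNT held under the scaling, filter and model alternatives, but not under removal of a linear trend on GC content, transcript length and expression. With it the medians of the large and small subunit became 0.007 and 0.015 for shUGDH-1 and 0 and -0.005 for shUGDH-2; the cause was not tested. The count of lower members with shUGDH-2 was 20 with DESeq2. The count of higher members with shUGDH-1 was 1 with library totals alone, 1 with DESeq2 and 5 with no low-count filter. Between the hairpins 3 members were lower with DESeq2, and 7 were higher when only those 2 groups were fitted. Without the members on chromosomes 4, 6, 20 and X 0 were higher between the hairpins, which follows from where the 4 higher members lie. Leaving out these chromosomes was chosen after seeing the data, as was the subtraction of each chromosome's median.

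With each replicate left out in turn, 18 to 30 members were lower and 1 to 5 higher with shUGDH-1, 22 to 37 lower and 0 higher with shUGDH-2, and 3 to 8 lower and 3 to 7 higher between the hairpins. The lowest count with shUGDH-1 came without shUGDH-1 replicate 1 and with shUGDH-2 without shNT replicate 2. Among named genes, over all comparisons and alternatives, 210 results went from called to not called and 36 from not called to called. The 3288 that kept their status include results called in neither fit, so they do not give the share of calls that held. No called value changed sign.

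Same-numbered libraries did not in general deviate together (correlations of -0.111 to 0.208, beside -0.155 to 0.151 for other numbers), so the numbers were not taken as pairs. The highest of all, 0.208, was between shNT replicate 1 and shUGDH-1 replicate 1. With the replicate block 28 members were lower and 4 higher with shUGDH-1, 36 lower and 0 higher with shUGDH-2, and 5 lower and 6 higher between the hairpins. The variance between libraries of a group was 1.19 to 1.91 that of counting, highest in pairs with shNT replicate 1.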
